A study of Danio rerio with 6 samples.

Results

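The claudin gene family was followed in RNA from zebrafish kept in DAPT or in its solvent DMSO. Members were the genes whose symbol in the deposited table begins with cldn and whose 6 counts sum to 10 or more, which gave 35 of the 25920 genes. The lowest members were cldnd and cldn10a, with 10 and 13 counts over the 6 libraries, and cldn18, with 8, fell just outside.

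Claudins are small membrane proteins that span the membrane several times and link neighbouring cells in the tight junction. Some seal the gap between cells and others line pores that let chosen ions through, so the claudins a tissue makes set how leaky it is. Fish have more claudin genes than mammals, and many of them are known from the skin, the gut, the ear, the kidney tubule, myelin or the lining of blood vessels.

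One group of fish was kept in 100 µM DAPT. This compound blocks gamma-secretase, an enzyme that cuts Notch receptors to free their active part and also cuts other membrane proteins. The control fish had DMSO. Both were treated from 60 hours post fertilization (hpf), were taken at 96 hpf and carried Tg(myl7:mCherry), a red marker driven by the promoter of a heart muscle gene. There were 3 libraries per treatment, numbered 1 to 3, and no label says whether each came from its own clutch. The p-values therefore rest on library-to-library spread, part or all of which may be technical. Below, CPM is the count scaled to library size with TMM factors, TPM is the authors' level per gene length, means carry an SD over n = 3 libraries, and log2 fold changes are DAPT minus DMSO ± standard error. A gene is said to have risen or fallen where edgeR's quasi-likelihood test gave an adjusted p under 0.05.

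Libraries held 21439371 to 21808613 counts with DAPT and 20542549 to 20656633 with DMSO. Hearts are given as the tissue in the labels, but embryos in the series' design. Heart muscle markers were present, with 7648.2 to 7927.3 CPM summed over 8 genes in DAPT libraries and 3753.8 to 4774.7 CPM in DMSO libraries, and 7 of the 8 rose, with myh6 at 1.93 ± 0.11, nppa at 1.55 ± 0.09 and tnnt2a at 1.04 ± 0.08, and actc1a was called lower at -0.31 ± 0.10. The groups of actc1a overlapped in CPM, and its call was lost without DAPT replicate 2 (-0.26), DAPT replicate 3 (-0.32) or DMSO replicate 1 (-0.19), with adjusted p 0.000115 to 0.116 over its alternatives. None of the 83 markers of 10 tissues, heart muscle and endothelium among them, was at 0 in any library. The epidermis marker krt4 averaged 18105.0 CPM over the 6 libraries, so the libraries held RNA beyond that of the heart. Of 8 neuron markers 6 fell (816.5 to 859.0 CPM summed with DAPT, 959.4 to 1140.8 with DMSO), led by snap25a at -0.88 ± 0.06, stmn2a at -0.65 ± 0.06 and snap25b at -0.75 ± 0.11. Liver markers had 5 of 6 lower (790.2 to 814.9 against 1449.2 to 1750.5 CPM with DMSO), led by tfa at -1.19 ± 0.08, serpina1 at -1.03 ± 0.07 and ttr at -1.82 ± 0.13. All 6 exocrine pancreas markers fell (571.2 to 637.3 against 1220.2 to 1529.8 CPM with DMSO), led by amy2a at -3.41 ± 0.10, ela2l at -3.41 ± 0.11 and cel.1 at -1.77 ± 0.10. For comparison with the marker counts here and below, 22.4% of all 22092 genes tested rose and 24.3% fell. In such bulk RNA, fewer cells of a type in the sample, for any reason, and less RNA per cell cannot be told apart. Whether the groups differed in how much of each tissue was taken was not tested.

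Claudins moved in both directions. Those grouped with skin and general epithelia, gut or vessel linings were mostly higher with DAPT. None grouped with myelin, kidney tubule or ear rose. Of those tested, 1 of 4 fell for myelin, 2 of 3 for kidney and 1 of 2 for ear, where 24.3% of all genes fell. The grouping was made from general knowledge of the family, and claudin-7, placed with general epithelia, is also known from kidney. Of the 33 members tested, 13 rose, 8 fell and 12 did not pass, or 63.6% called. Over all 22092 genes tested, 46.6% were called, 22.4% higher and 24.3% lower. At least 1.5-fold changes were called in 8 members upward and 5 downward, where 6.97% of all genes passed that upward and 12.5% downward. The median log2 fold change was 0.04 over the members. CPM values of the groups did not overlap in 22 members, which held for 56.8% of all genes. Scaling by library totals alone shifted the log2 fold change of the median gene by -0.098. Under it 11 members were higher and 12 lower, so that 47.8% of the calls were higher against 61.9% with TMM factors. The split over all genes with library totals is not given here. Leaving out DAPT replicate 1 left 5 lower members.

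**Figure D1:**
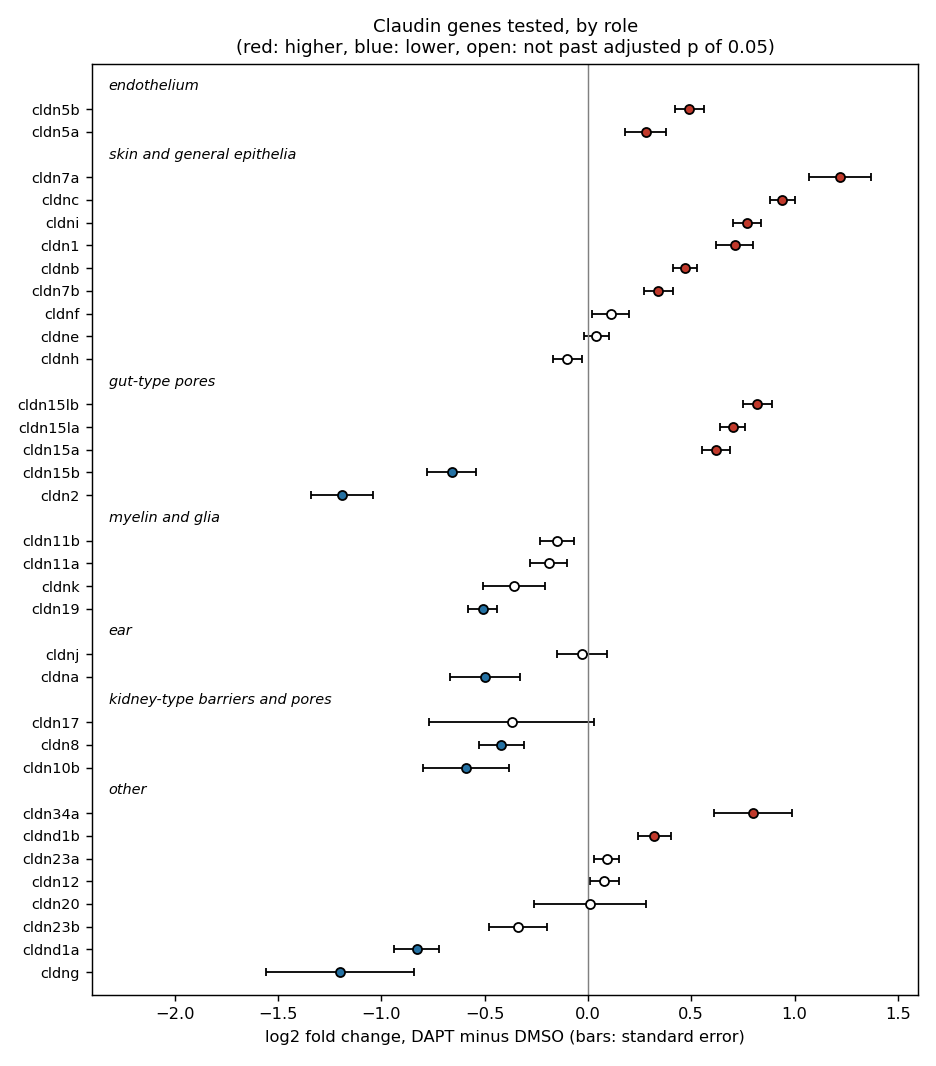
Log2 fold change of each tested claudin, DAPT minus DMSO, with its standard error, grouped by known role; filled points passed an adjusted p of 0.05. Values run between 1.22 for cldn7a and -1.20 for cldng, and every called claudin of skin and general epithelia lies right of 0.

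Per gene length, a few epithelial claudins made up most of the family's transcripts. The members together held 1959.9, 2084.9 and 2061.0 TPM in the DAPT libraries, against 1660.8, 1760.8 and 1760.1 TPM in the DMSO libraries. These are 0.196 to 0.208% of all TPM with DAPT and 0.166 to 0.176% with DMSO, so the groups did not overlap. The genes cldnb, cldni, cldne, cldn7b and cldn15la made up 70.5 to 71.2% of the family's TPM with DAPT and 67.8 to 68.4% with DMSO. In every library cldnb was the highest, at 22.7 to 24.9% of the family. The second place differed between the groups. With DAPT it was held by cldni, at 16.7 to 18.0% of the family's TPM, and with DMSO by cldne, at 15.6 to 15.8%. The share of cldne with DAPT was 12.1 to 12.4%, and that of cldni with DMSO 12.6 to 14.0%. TPM carries no TMM factor. On that scale the groups overlapped for cldn5a, cldn7b and cldnd1b, and cldne, cldnh, cldn11b, cldnk and cldn23b, whose CPM overlapped, were lower in every DAPT library than in any DMSO library.

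**Figure D2:**
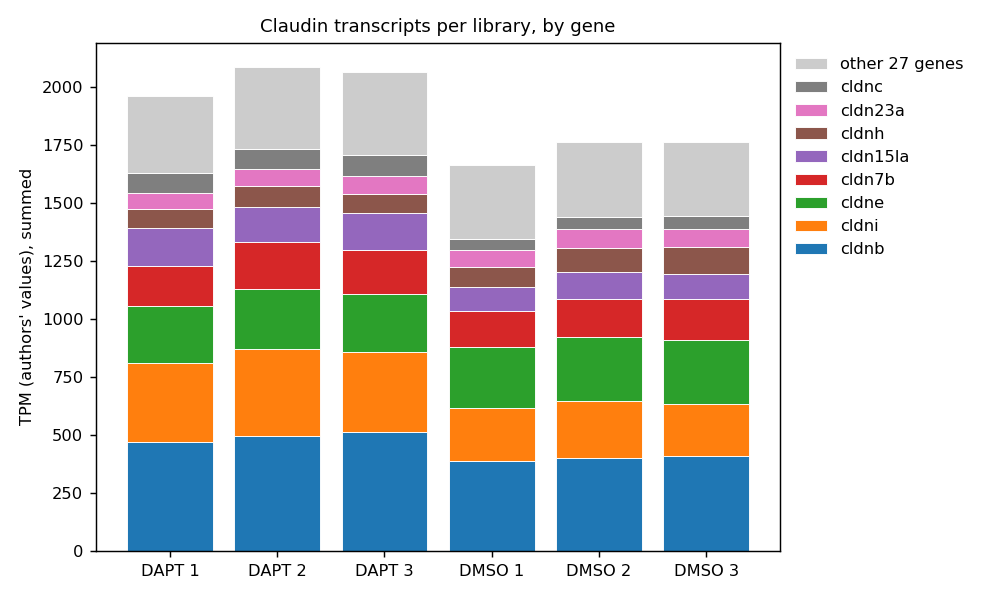
Summed TPM of the 35 claudin genes in each library, stacked by gene, with DAPT libraries on the left. Bars with DAPT reach 1959.9 to 2084.9 TPM and those with DMSO 1660.8 to 1760.8 TPM, and the cldni segment is the one above cldnb.

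Endothelial claudins were higher with DAPT. The gene cldn5b (gene ID 450023), one of the zebrafish copies of claudin-5, the main tight junction claudin of vessel linings, had 44.3, 44.9 and 43.7 CPM in the DAPT libraries and 34.5, 30.3 and 29.9 CPM in the DMSO libraries. All DAPT values lay above all DMSO values, and it rose by 0.49 ± 0.07 (adjusted p = 0.000102). Its copy cldn5a, known from the brain ventricle lining and brain vessels, had 11.1, 9.17 and 10.1 CPM with DAPT and 8.66, 8.36 and 8.07 CPM with DMSO. The groups lay close to each other but did not overlap (0.28 ± 0.10, adjusted p = 0.0399). That call was lost in 9 of 13 alternatives, with adjusted p between 0.0265 and 0.178 over all of them. Among these were fits without DAPT replicate 1 (0.21) or 3 (0.28) and without DMSO replicate 1 (0.30), 2 (0.28) or 3 (0.25). In the same libraries 7 of 8 endothelial markers rose, with cdh5 at 0.87 ± 0.06, plvapb at 0.67 ± 0.06 and pecam1 at 0.87 ± 0.08. Summed, the markers had 742.3 to 778.6 CPM with DAPT and 457.0 to 542.1 CPM with DMSO, and their part in the rise of the claudins was not tested.

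Among 9 claudins grouped with skin and general epithelia 6 rose, none fell and 3 did not pass, where 22.4% of all genes rose and 24.3% fell. The gene cldni (gene ID 569084), an epidermal claudin, had 362.9, 404.4 and 355.1 CPM with DAPT, against 220.9, 232.9 and 205.5 CPM with DMSO. Every DAPT library was above every DMSO library by a wide gap, and the rise was 1.70-fold (log2 0.77 ± 0.07, adjusted p = 3.52e-06). The gene cldnb, whose promoter is widely used to mark the migrating lateral line primordium and which is also made in skin, had 317.3, 343.8 and 343.1 CPM with DAPT and 240.6, 243.6 and 243.3 CPM with DMSO. Its DMSO values were nearly equal, and it rose by 0.47 ± 0.06. The gene cldn1, whose mammalian counterpart seals the epidermis against water loss, had 18.0, 20.2 and 18.7 CPM with DAPT and 12.4, 11.9 and 10.5 CPM with DMSO. The groups were apart, with a rise of 0.71 ± 0.09.

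The claudin-7 copies both rose. Claudin-7 in mammals is found along the sides of epithelial cells in gut and kidney. The lower-level copy cldn7a had 12.7, 19.9 and 14.5 CPM in DAPT libraries and 6.27, 6.98 and 6.89 CPM in DMSO libraries, the steepest called rise of the family at 1.22 ± 0.15. The copy cldn7b had 211.1, 253.3 and 224.8 CPM with DAPT and 175.6, 179.4 and 189.2 CPM with DMSO, a rise of 0.34 ± 0.07. Both were highest in DAPT replicate 2. That library was the highest of the DAPT libraries for 8 of these 9 claudins.

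Of the claudin-3 relatives cldnc and cldnh, which RefSeq names cldn3d and cldn3c, 1 was called. For cldnc the DAPT libraries had 94.9, 101.3 and 101.5 CPM, against 48.9, 52.7 and 53.9 CPM with DMSO. It had the smallest p of the family, with a 1.91-fold rise (log2 0.94 ± 0.06, adjusted p = 1.9e-07). For cldnh the values were 97.2, 103.6 and 95.6 CPM with DAPT and 93.2, 108.3 and 115.1 CPM with DMSO. Those groups overlapped, and the value of -0.10 ± 0.07 did not pass (adjusted p = 0.323). It was called at -0.18 without DMSO replicate 1, where its adjusted p was 0.0499, and over its alternatives that p reached 0.754.

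The other members of this group that did not pass were cldne and cldnf. Claudin E is known from the enveloping layer of the early zebrafish embryo, where it is needed for epiboly. Here cldne had 296.2, 316.0 and 296.6 CPM with DAPT and 293.2, 299.9 and 293.2 CPM with DMSO. The groups overlapped, and the log2 fold change was 0.04 ± 0.06. Scaling by library totals alone turned it to -0.062 (adjusted p = 0.364 there, 0.364 to 0.94 over its alternatives). Values of cldnf were 30.6, 39.2 and 31.6 CPM with DAPT and 31.3, 29.9 and 32.8 CPM with DMSO. DAPT replicate 2 alone stood above the DMSO range (0.11 ± 0.09).

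Markers of epidermis and periderm moved in both directions. There were 7 rises and 4 falls among 14 genes, and 3 did not pass. The smallest p values were those of falls, krt17 at -1.76 ± 0.08, evpla at -0.73 ± 0.06 and krt5 at -0.67 ± 0.07. Named after their values were seen, ppl also fell (-0.58 ± 0.07), and agr1, anxa1c, krt91 and tp63 rose by 0.57 ± 0.06, 0.43 ± 0.06, 0.62 ± 0.08 and 0.53 ± 0.09. Their summed level of 32797.0 to 34445.9 CPM with DAPT lay within the 31027.4 to 35823.2 CPM seen with DMSO, but krt4, cyt1l and cyt1 made up 86.4% of it. Without krt4 alone the groups still overlapped, at 15511.1 to 16255.2 CPM with DAPT and 14122.4 to 16281.0 CPM with DMSO. Without all 3, the other 11 markers summed to 3809.9 to 4110.4 CPM with DAPT and 4844.2 to 5640.9 CPM with DMSO. These sums, and those below without a list's highest gene or genes, were chosen after seeing the data. The 9 claudins of skin and general epithelia summed to 1440.9 to 1601.8 CPM with DAPT and 1122.3 to 1165.5 CPM with DMSO. The part of the markers was not tested.

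**Figure D3:**
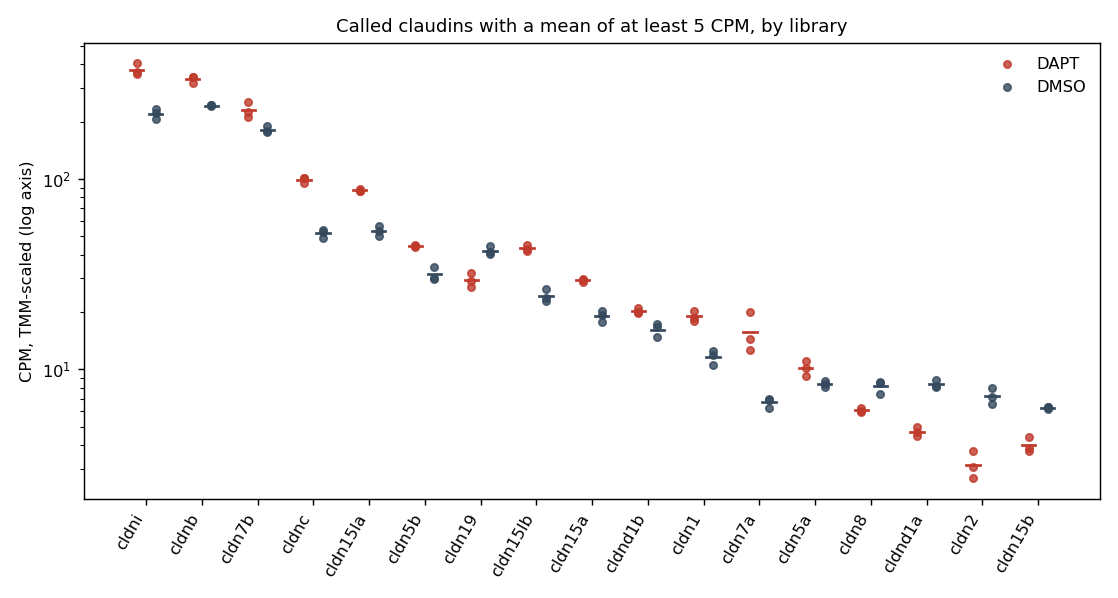
CPM in each library, on a log axis, of the 17 called claudins with a mean of at least 5 CPM, with DAPT in red on the left of each pair, DMSO in grey and a line at each mean. The groups do not overlap in CPM in any of them, but these genes were picked by their calls, and 56.8% of all genes do not overlap. In TPM the groups of cldn5a, cldn7b and cldnd1b overlap. On the log axis, the spread with DAPT is widest for cldn7a, at 12.7 to 19.9 CPM.

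The 5 claudins of the gut pore type were all called, 3 upward and 2 downward. Of all genes tested 46.6% were called, 22.4% higher and 24.3% lower. In mammals claudin-15 and claudin-2 form pores for small cations and water in the intestine, and zebrafish cldn15a is needed for the gut to form a single lumen. The gene cldn15la, whose reporter marks the zebrafish intestinal lining, had 88.6, 86.0 and 86.5 CPM with DAPT and 50.4, 56.8 and 53.4 CPM with DMSO. The lowest DAPT value was far above the highest DMSO value, and the rise was 0.70 ± 0.06 (adjusted p = 1.76e-06). Its copy cldn15lb had 41.6, 43.0 and 44.9 CPM with DAPT and 22.9, 26.5 and 23.8 CPM with DMSO (0.82 ± 0.07). Levels of cldn15a were 29.9, 29.4 and 28.8 CPM with DAPT and 19.2, 20.3 and 17.7 CPM with DMSO (0.62 ± 0.07). For both, every DAPT library was above every DMSO library.

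The falls in this group were in low-level genes. For cldn2 the libraries had 2.68, 3.07 and 3.71 CPM with DAPT and 6.55, 7.98 and 7.16 CPM with DMSO, a 0.437-fold level (log2 -1.19 ± 0.15, adjusted p = 3.67e-05). For cldn15b they had 3.87, 4.39 and 3.71 CPM with DAPT and 6.32, 6.22 and 6.34 CPM with DMSO (-0.66 ± 0.12). Both were lower in each DAPT library than in any DMSO library. Gut lining markers had 6 of 9 higher, 1 lower and 2 not passing. Examples were the microvillus gene vil1 at 1.04 ± 0.06 and the gut transcription factor gene cdx1b at 1.12 ± 0.07, while the lipoprotein gene apoa4b.1 fell (-1.02 ± 0.07). Their summed level was 1212.7 to 1271.0 CPM with DAPT and 937.8 to 1055.8 CPM with DMSO. Without vil1 the groups overlapped, at 756.8 to 797.6 CPM with DAPT and 721.4 to 813.5 CPM with DMSO. Without vil1, fabp2 and apoa4b.1 they were apart, at 377.2 to 388.9 CPM with DAPT and 238.2 to 277.1 CPM with DMSO. The part of these markers in the claudin changes was not tested.

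None of the 4 claudins of myelin and glia rose, and 1 of them fell. That is 25.0% lower, near the 24.3% of all genes, of which 22.4% rose. The gene cldn19, known in mammals from Schwann cells and the kidney tubule, had 27.1, 31.9 and 29.2 CPM with DAPT and 44.2, 41.5 and 40.1 CPM with DMSO. It fell by 0.51 on the log2 scale, with a standard error of 0.07 and groups well apart (adjusted p = 0.000119). The gene cldnk, a marker of zebrafish oligodendrocytes and Schwann cells, had 6.26, 7.76 and 6.72 CPM with DAPT and 10.1, 9.74 and 6.75 CPM with DMSO. DMSO replicate 3 lay among the DAPT values, so the groups overlapped and -0.36 ± 0.15 did not pass (adjusted p = 0.0715). Leaving that library out gave a call for cldnk at -0.53, with an adjusted p of 0.00185, while over its alternatives the p went up to 0.247.

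Claudin-11 forms the tight junctions between the wraps of myelin in mammals. Its copy cldn11a had 10.1, 9.81 and 11.5 CPM with DAPT and 11.8, 11.5 and 12.6 CPM with DMSO, and cldn11b had 17.7, 16.0 and 19.1 CPM with DAPT and 20.5, 19.0 and 19.1 CPM with DMSO. For cldn11a every DAPT value lay below every DMSO value, though closely, and for cldn11b the groups met at DAPT replicate 3. Their values of -0.19 ± 0.09 and -0.15 ± 0.08 did not pass with TMM factors. With library totals alone both passed, at -0.29 and -0.25 (adjusted p = 0.0316 and 0.0309, with 0.0316 to 0.298 and 0.0309 to 0.46 over their alternatives), as did cldnk at -0.45. Beside them, 6 of 8 myelin glia markers fell, with plp1a at -1.35 ± 0.15, mbpa at -1.0 ± 0.14 and mpz at -0.63 ± 0.12, and 2 did not pass. Named after its values were seen, mag passed narrowly at -0.27 ± 0.10 (adjusted p = 0.048), and its groups overlapped in CPM. The count of markers that fell was 5 in several alternatives, among them DESeq2, limma-voom and each fit without a DAPT library. Summed, the markers had 164.8 to 184.4 CPM with DAPT and 180.5 to 216.3 CPM with DMSO. Without mbpb, which did not pass, the sums were 64.5 to 73.4 CPM with DAPT and 90.7 to 115.2 CPM with DMSO, and their part was not tested.

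Of the 2 ear claudins 1 fell, where 24.3% of all genes fell. The gene cldnj, needed for otolith formation and hearing in zebrafish, had 5.93, 6.25 and 7.34 CPM with DAPT and 7.13, 6.89 and 5.98 CPM with DMSO. The groups overlapped, and the value was -0.03 ± 0.12. Low levels of cldna, 2.77, 4.39 and 2.96 CPM with DAPT and 5.07, 4.51 and 4.74 CPM with DMSO, gave -0.50 ± 0.17 (adjusted p = 0.0314). DAPT replicate 2 came near the DMSO values. The call of cldna was lost without DAPT replicate 1 (-0.38), without DAPT replicate 3 (-0.41), without DMSO replicate 1 (-0.46) and with DESeq2 (-0.50), with adjusted p between 0.00411 and 0.133 over its alternatives. Of 8 ear and lateral line markers 1 rose, the synaptic gene otofb at 1.83 ± 0.10, 2 fell, the otolith genes stm at -0.70 ± 0.11 and otomp at -0.56 ± 0.21, and 5 did not pass. These are 12.5% higher and 25.0% lower, beside 22.4% and 24.3% of all genes. Named after its values were seen, otofa, the copy of otofb, was among those that did not pass (-0.06 ± 0.14). The call of otomp was lost in 9 of 12 alternatives, among them each one that left out a library (-0.64 to -0.46), with adjusted p 0.0233 to 0.18 over all of them. The markers summed to 398.7 to 437.5 CPM with DAPT and 511.1 to 636.6 CPM with DMSO, of which stm made up 69.6%. Without stm the groups overlapped, at 152.3 to 165.1 CPM with DAPT and 124.7 to 153.1 CPM with DMSO, and the part of these markers was not tested.

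Kidney-type claudins among the members were low, and 2 of the 3 tested fell, where 24.3% of all genes fell. In RefSeq cldn8 is named cldn8.1 and cldn17 is named cldn8.3. The gene named cldn8.2 there, which is no member, averaged 60.5 CPM over the 6 libraries and rose (0.30 ± 0.07). In mammals claudin-8 tightens the junction against cations, and claudin-10 forms ion pores in the tubule. The gene cldn8 had 5.98, 6.25 and 6.07 CPM with DAPT and 8.56, 8.50 and 7.44 CPM with DMSO. The groups were apart (-0.42 ± 0.11, adjusted p = 0.00626). For cldn10b the means were 1.42 ± 0.32 CPM with DAPT and 2.15 ± 0.226 CPM with DMSO, a value of -0.59 ± 0.21 (adjusted p = 0.037). That call was lost in 6 alternatives, with adjusted p 0.0185 to 0.146: with DESeq2, with the replicate block, and without DAPT replicate 1 (-0.44) or 2 (-0.59) or DMSO replicate 1 (-0.51) or 3 (-0.61). Values of cldn17 stayed under 1 CPM and did not pass, and cldn10a was too low to be tested. Kidney tubule markers had 5 of 8 lower, 1 higher and 2 not passing, led by the transporter genes slc13a1 at -2.52 ± 0.16, slc26a1 at -1.47 ± 0.12 and slc12a1 at -2.02 ± 0.22. Their sum was 325.4 to 343.2 CPM with DAPT and 336.3 to 387.0 CPM with DMSO. Without cdh17, the marker that rose, it was 91.6 to 104.6 CPM with DAPT and 149.7 to 180.5 CPM with DMSO, and the part of these markers was not tested.

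**Figure D4:**
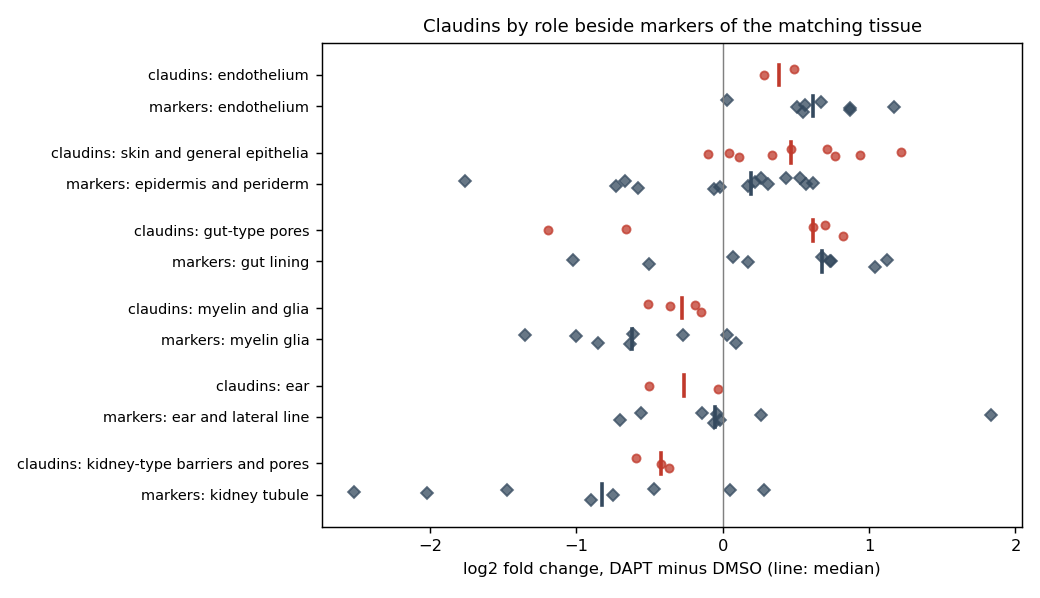
Log2 fold changes of claudins by role (red circles) beside markers of the matching tissue (dark diamonds), DAPT minus DMSO, with a line at each median. Medians, claudins first, are 0.38 and 0.61 for endothelium, 0.47 and 0.19 for skin and general epithelia, and 0.62 and 0.68 for gut. They are -0.28 and -0.62 for myelin, -0.27 and -0.05 for ear, and -0.42 and -0.83 for kidney. The markers beside skin and general epithelia are of epidermis and periderm.

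Of the 9 remaining members, whose tissues are less well known, 2 rose and 2 fell. Of the 8 tested, that is 25.0% each way, near the 22.4% higher and 24.3% lower of all genes. The claudin domain genes cldnd1a and cldnd1b, more distant relatives of the family, moved apart. In DAPT libraries cldnd1a had 4.45, 4.68 and 4.98 CPM, against 8.04, 8.83 and 8.17 CPM in DMSO libraries, a log2 fold change of -0.83 ± 0.11. Its copy cldnd1b had 19.8, 19.9 and 21.0 CPM with DAPT and 14.7, 16.6 and 17.2 CPM with DMSO, a rise of 0.32 ± 0.08. With library totals alone the rise of cldnd1b did not pass (0.22, adjusted p = 0.0519, with 0.00224 to 0.0519 over its alternatives). The other rise was that of cldn34a, with means of 3.47 ± 0.659 CPM with DAPT and 1.99 ± 0.25 CPM with DMSO (0.80 ± 0.19). The other fall was that of cldng, at 0.303 ± 0.0229 CPM with DAPT and 0.706 ± 0.212 CPM with DMSO (-1.20 ± 0.36, adjusted p = 0.0168).

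The call of cldng was lost without DAPT replicate 1 (-1.16) or 2 (-1.18), without DMSO replicate 2 (-0.93) and with DESeq2 (-1.21), with adjusted p 0.011 to 0.0833 over its alternatives. Among those that did not pass, cldn23a averaged 93.0 ± 3.54 CPM with DAPT and 87.6 ± 2.71 CPM with DMSO, and the groups overlapped. The gene cldn12, an atypical claudin that in mammals lacks the usual binding motif for scaffold proteins at its tail, averaged 46.0 ± 3.67 CPM with DAPT and 43.4 ± 0.575 CPM with DMSO. The genes cldn23b (-0.34 ± 0.14) and cldn20 (0.01 ± 0.27) were under 6 CPM in every library. With library totals alone, or without DMSO replicate 2, cldn23b passed at -0.44 and -0.43 (adjusted p = 0.0241 and 0.0246, with 0.0241 to 0.2 over its alternatives). The gene cldnd was too low to be tested.

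Members named as a and b copies were compared within each library, as the log2 ratio of a over b. In 6 of 7 pairs the DAPT and DMSO libraries did not overlap. The CPM of single genes did not overlap in 56.8% of all genes, and ratios of other gene pairs were not computed. The ratio of cldn15a over cldn15b was 2.95, 2.74 and 2.95 with DAPT, against 1.61, 1.71 and 1.48 with DMSO. For cldnd1a over cldnd1b it was -2.16, -2.08 and -2.08 with DAPT and -0.87, -0.91 and -1.08 with DMSO. For cldn7a over cldn7b the means were -3.89 ± 0.20 with DAPT and -4.76 ± 0.07 with DMSO. Ratios within a library do not depend on how libraries are scaled. Smaller differences, DAPT minus DMSO, were found for cldn23a over cldn23b (0.42), cldn5a over cldn5b (-0.22) and cldn15la over cldn15lb (-0.12). In these the groups nearly met. In that order, the nearest DAPT and DMSO values were 4.31 and 4.26, -2.0 and -2.0 as rounded, and 1.09 and 1.1. The groups overlapped for cldn11a over cldn11b (-0.04, exact two-sided permutation p = 0.6). For the 6 pairs the exact p was 0.1, the smallest that 3 against 3 libraries allow, and 0.117 when adjusted over the 7 pairs.

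Some claudins stand side by side in the genome, and called genes stood next to uncalled ones. By gene order in the RefSeq annotation of assembly GRCz12tu, cldnh, cldnc and cldnb head a row of 7 claudin genes. The first had a value of -0.10, and the next genes rose by 0.94 and 0.47. Further along that row come genes that RefSeq names cldn29 (0.11), cldn28 (-0.65) and cldn30 (-0.05), none of which was called. In another row cldnj, cldne and cldnf, none of which passed, are followed by cldna, which fell. The genes cldn23a and cldn23b are also neighbours, and neither passed.

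**Figure D5:**
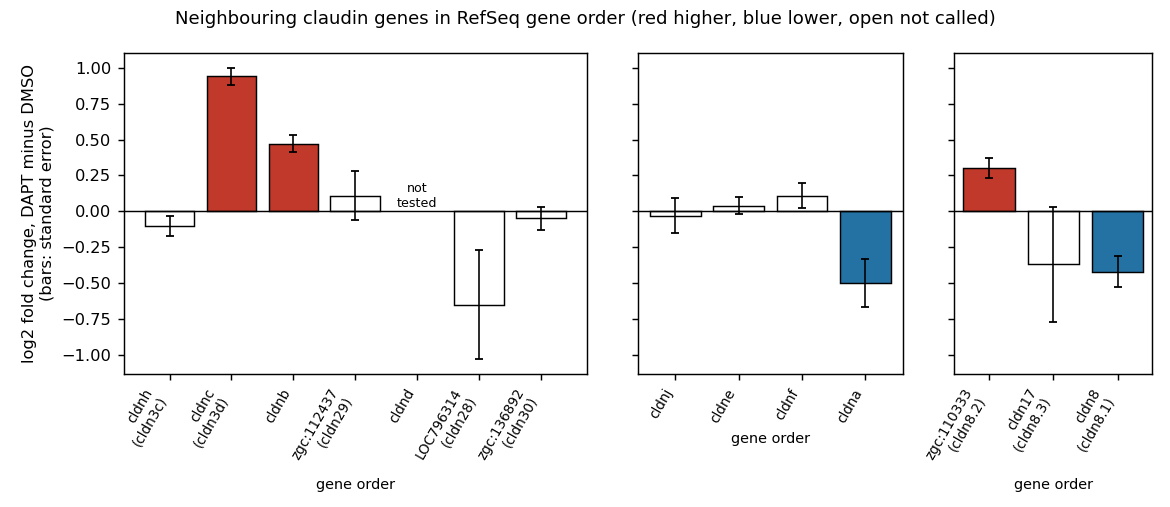
Log2 fold changes with standard errors, DAPT minus DMSO, of claudin genes in the order in which RefSeq lists them, for 3 such rows. In the longest row the called genes are cldnc at 0.94 and cldnb at 0.47.

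Most rises were in members with higher CPM and most falls in those with lower CPM. CPM is not per gene length, so this orders the genes by reads and not by transcript level. Of 19 members with a mean of at least 10 CPM over the 6 libraries, 11 rose and 1, cldn19, fell. Of 14 members under 10 CPM, 2 rose and 7 fell. Over all genes, 30.4% rose and 23.6% fell among those of at least 10 CPM, while 12.7% rose and 25.1% fell among those below. The Spearman correlation of mean CPM with log2 fold change was 0.544 over the 33 members and 0.179 over all genes tested. Members share the same libraries, so this describes these data only.

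In a list of other tight junction genes more rose than fell. Of 50 tested, 21 rose (42.0%), 4 fell (8.0%) and 25 did not pass, where 22.4% of all genes rose and 24.3% fell. The 50.0% called is near the 46.6% of all genes, and the median log2 fold change was 0.14. Among the 6 with the smallest p were the scaffold gene tjp1b, which encodes a ZO-1 protein that binds claudin tails, at 160.4 ± 8.97 CPM with DAPT and 108.3 ± 8.88 CPM with DMSO, and the cingulin-like gene cgnl1 at 207.2 ± 2.27 CPM with DAPT and 151.8 ± 8.32 CPM with DMSO. The polarity gene pard6gb rose by 0.55 ± 0.07 and the angiomotin-like gene amotl2b by 0.57 ± 0.05. Falls were seen for the adhesion gene f11r.2, at 0.985 ± 0.323 CPM with DAPT and 3.55 ± 0.258 CPM with DMSO, and for the polarity gene crb1 at -1.52 ± 0.21. The other 2 falls, named after their values were seen, were jam3a at -0.40 ± 0.09 and magi1a at -0.31 ± 0.07. With library totals alone 13 rose and 8 fell, so that 61.9% of the calls were higher against 84.0% with TMM factors. Here too the split over all genes with that scaling is not given. Of the genes on this list, epcam and esama are also on the epidermis and endothelium lists.

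A further 13 genes carry claudin names in RefSeq but other symbols in the deposited table, and are no members. Of the 9 tested, 2 rose, 2 fell and 5 did not pass, or 44.4% called, near the 46.6% of all genes. The highest was zgc:110333, named cldn8.2 in RefSeq, at 66.9 ± 0.848 CPM with DAPT and 54.1 ± 4.81 CPM with DMSO (0.30 ± 0.07). In gene order it is followed by cldn17, which did not pass, and then by cldn8. The gene named cldn35 rose by 0.73 ± 0.22, while those named cldn20 and cldn23l were lower by log2 values of -0.98 ± 0.25 and -1.23 ± 0.29. The member that the table calls cldn20 is thus another gene.

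Counts of 3 members, cldnj, cldn10b and cldn11b, were not all whole, and in the GRCz12tu annotation 12 members overlap another gene. The strand setting of the counting is not given in the sources used here, so reads of overlapping genes may not be told apart. The overlapping partner of cldni, coro1a, had 20.8 ± 1.48 CPM with DAPT and 27.8 ± 0.982 CPM with DMSO, and that of cldn7b, nlgn2b, had 7.35 ± 0.463 CPM with DAPT and 14.3 ± 0.673 CPM with DMSO. Both partners fell while the claudins rose. For cldn2 the partner rbm41 had 13.0 ± 0.775 CPM with DAPT and 16.6 ± 0.718 CPM with DMSO, above the claudin itself, and fell with it. Other claudins that fell also lay below a partner in mean CPM over the 6 libraries. These were cldng (0.504) below znf654 (44.3), cldn10b (1.78) below rrp1 (40.4) and cldn15b (5.14) below naa38 (8.9). Of these partners znf654 and rrp1 rose, and naa38 did not pass. For cldn19, which fell, the overlapping genes are absent from the deposited table, so no partner value can be set beside it. The spans of cldn17 and cldn8 overlap each other. That of cldn17 (0.513 CPM) also overlaps the gene named cldn8.2 (60.5 CPM).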

How the data were processed

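The authors deposited 1 table with read counts, FPKM and TPM per library, per the file headers. Their deposited counts were not scaled, and 15.2 to 16.0% are not whole, so they were taken here as estimated counts. TPM, the authors' level per gene length, served to compare genes. Deposited FPKM and group means were not analysed here. STAR 2.7.1a, featureCounts 1.6.0, edgeR and build GRCz11 are named in the submitters' processing notes, with no roles.

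Counts were rounded and fitted with edgeR 4.0.16 in R 4.3.3: filterByExpr (22092 of 25920 genes), TMM factors, and the quasi-likelihood test for treatment, which had 4 residual degrees of freedom. Adjustment across every tested gene followed Benjamini-Hochberg. The standard error is the log2 fold change over the square root of F. The biological coefficient of variation was 6.82%. The scripts were tested on simulated data in which far fewer genes changed than were called here, upward and downward alike. That test does not bear on the choice of scaling. Alternatives were DESeq2 1.42.0, limma-voom (limma 3.58.1), other scalings and filters, a replicate block and leaving out each library.

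The members and lists were chosen with earlier results of these data known. All members past the threshold are named, with values per library where the mean is at least 5 CPM, as are up to 6 tight junction and 3 marker genes per list, those with the smallest p. Of 55 tight junction genes written 51 were found, and 8 of 9 endothelial ones. All 35 members matched RefSeq by gene ID. That annotation is of another assembly, GRCz12tu, so it gave names and neighbours, and no coordinates.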

Additional observations from a re-analysis of the deposited data

How the results depend on the processing

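Direction and call were the same under all 13 alternatives that gave a value in 17 of 33 claudins, 11 of them higher, 5 lower and 1 not called. The count of lower members was 5 with DESeq2 and 5 when at least 5 CPM in 3 libraries was required, and 5 to 8 when a library was left out. With library totals alone the median over the members was -0.062, and 13 tight junction partners rose and 8 fell. Uncalled members changed sign with library totals alone in cldn23a (-0.012), cldne (-0.062), cldn12 (-0.014) and cldn20 (-0.085). When a library was left out, cldnf ranged over -0.007 to 0.18, cldnj over -0.13 to 0.032 and cldn20 over -0.14 to 0.35. Same-numbered libraries did not deviate together (r = 0.00917, -0.0679 and -0.0255 for numbers 1, 2 and 3), and no library correlated best with that of its own number. With the replicate block 19 claudins were called, 12 higher and 7 lower, as were 24 tight junction partners, 64 tissue markers and 9716 genes in all. The block ended the calls of cldn5a (0.27, adjusted p = 0.0544) and cldn10b (-0.60, adjusted p = 0.0594), and no other claudin call. With 3 libraries a group, genes under about 1 CPM were measured with wide errors.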
